A study of Mus musculus with 7 samples.

Results

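Mitosis is carried out by a set of proteins that a cell makes mainly in the G2 and M phases of its division cycle, and the messenger RNAs of 54 such genes are described here in regulatory T cells that lack Id2 and Id3. The 54 genes were taken by name from textbook roles: mitotic kinases and cyclins, the spindle checkpoint, the chromosomal passenger complex, centromere and kinetochore proteins, kinesin motors, other spindle proteins, cytokinesis proteins, and proteins that shape mitotic chromosomes. The list was chosen with earlier results of these data known, so its counts and medians are descriptions and not a test of the list. All 54 were found among the 39179 genes of the authors' deposited table, where the lowest of them had a mean of 339 scaled counts over both groups. A scaled count is a number of reads divided by a size factor of its library, which evens out sequencing depth.

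Entry into mitosis is driven by cyclin-dependent kinase 1 with cyclins A and B, and by the Polo and Aurora kinases. Microtubules then form a spindle with the help of kinesin motors, and each chromosome attaches to them through its kinetochore, a protein complex built on the centromere. Until every chromosome is attached, the spindle checkpoint holds back the anaphase-promoting complex, a ubiquitin ligase whose activity then lets the sister chromatids part. Regulatory T cells are CD4 T cells marked by the transcription factor Foxp3 that restrain immune responses, and a share of them divides in lymphoid tissue. Id2 and Id3 are inhibitors of E proteins, transcription factors that bind a short DNA motif called the E-box.

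All libraries came from CD4+TCRb+CD25hi Foxp3+ cells sorted from lymph nodes of C57BL/6 mice at 3 weeks of age. In a numbered set, 3 double-knockout (dKO) libraries with the genotype Id2fl/flId3fl/flFoxp3cre were set against 2 control libraries with the genotype Id2fl/+Id3fl/+Foxp3cre. The control cells thus carried the Cre recombinase as well and 1 floxed copy of each gene, and the Cre is driven by Foxp3, so deletion is limited to cells that have expressed Foxp3. A separate pair had 1 library labelled dKO and 1 labelled control, and its genotype tags run the other way from its titles and source names, so the pair is named by its titles.

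The authors' deposited table for the numbered set gives group means, with no value per library. Its targeted genes read 61.1 scaled counts in dKO against 783 in control for Id2, a log2 change of -3.68 at an adjusted p of 1.48e-08, and 891 in dKO against 1376 in control for Id3, a log2 change of -0.63 at an adjusted p of 0.209. Whether these reads fell in the deleted parts of both genes is not known here. From the decimals of the control means, the reads of the 2 control libraries could be recovered for 40 of the 54 mitotic genes, on the condition that the control libraries lie within 2-fold of each other. Of 1311 genes with control means of 300 to 600 that had a single solution without this condition, 1283 (97.9%) met it. Most of the 54 genes have higher control means, for which this share was not computed. The dKO means, of 3 libraries each, could not be split in this way, and no spread within dKO can be given. The 2 control libraries are called the deeper and the other one, with size factors of 1.29 and 1.09, because nothing ties them to replicate numbers. Reads of 4 Y-linked genes numbered 601 in the deeper and 15 in the other control library. By these reads the 2 control libraries were not repeats of the same cell sample. The labels do not say which animals gave which library, so a p-value here reflects only how much the libraries vary. Between the dKO libraries that variation may be technical.

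Messenger RNA of nearly all the mitotic genes was higher in dKO cells, by a similar factor. By the authors' deposited table, of the 54 genes 50 rose, 0 fell and 4 did not pass an adjusted p of 0.05, against a background of 3.38% of all 31641 genes with a p that rose and 3.18% that fell. Among genes with a mean of 200 scaled counts or more, the expression range of these genes, 8.14% rose. The median log2 fold change of the 54 genes, dKO over control, was 0.97, a fold of 1.96, with quartiles of 0.84 and 1.07, against -0.01 for the 15446 genes that average at least 10 scaled counts, of which 6.8% rose. At an unadjusted p under 0.05 by DESeq, 52 of the 54 genes were higher and 1, Pttg1, was lower, in the authors' deposited table. The share of all 31641 genes under this unadjusted threshold was not computed, so these 2 counts have no background beside them. The changes lay close together, with 48 of the 54 genes between 1.6-fold and 2.3-fold and 21 at 2-fold or more. In bulk RNA, more cells in division and more of these RNAs in each dividing cell cannot be told apart.

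Where control reads were recovered, the difference was wide beside the gap between the control libraries, though the recovery itself limits that gap. The spread between the dKO libraries is not known and does not enter this comparison. For the 40 genes with recovered reads, the control libraries differed by a median of 0.07 on the log2 scale, whichever was higher, and by 0.35 at most, for Bub1. Only 7 of the 40 had a single solution without the 2-fold condition. For the others a gap above 2-fold was left out beforehand, so these gaps are not a free measure of the control spread. The dKO mean lay above both control libraries for 39 genes and below both for 1, Pttg1. The share of all genes with a dKO mean above both was not computed, so these counts have no background beside them. Some other cell division genes, listed below, lay above both control libraries without passing the adjusted p. Apart from Pttg1, the dKO mean exceeded a single control library by 0.45 to 1.29 on the log2 scale, and the median was 0.96 against either control library. The deeper control library, which held most Y-linked reads, was the higher of the 2 for 28 of the 40 genes. The plot of levels by gene shows the dKO mean beside the control values.

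**Figure D1:**
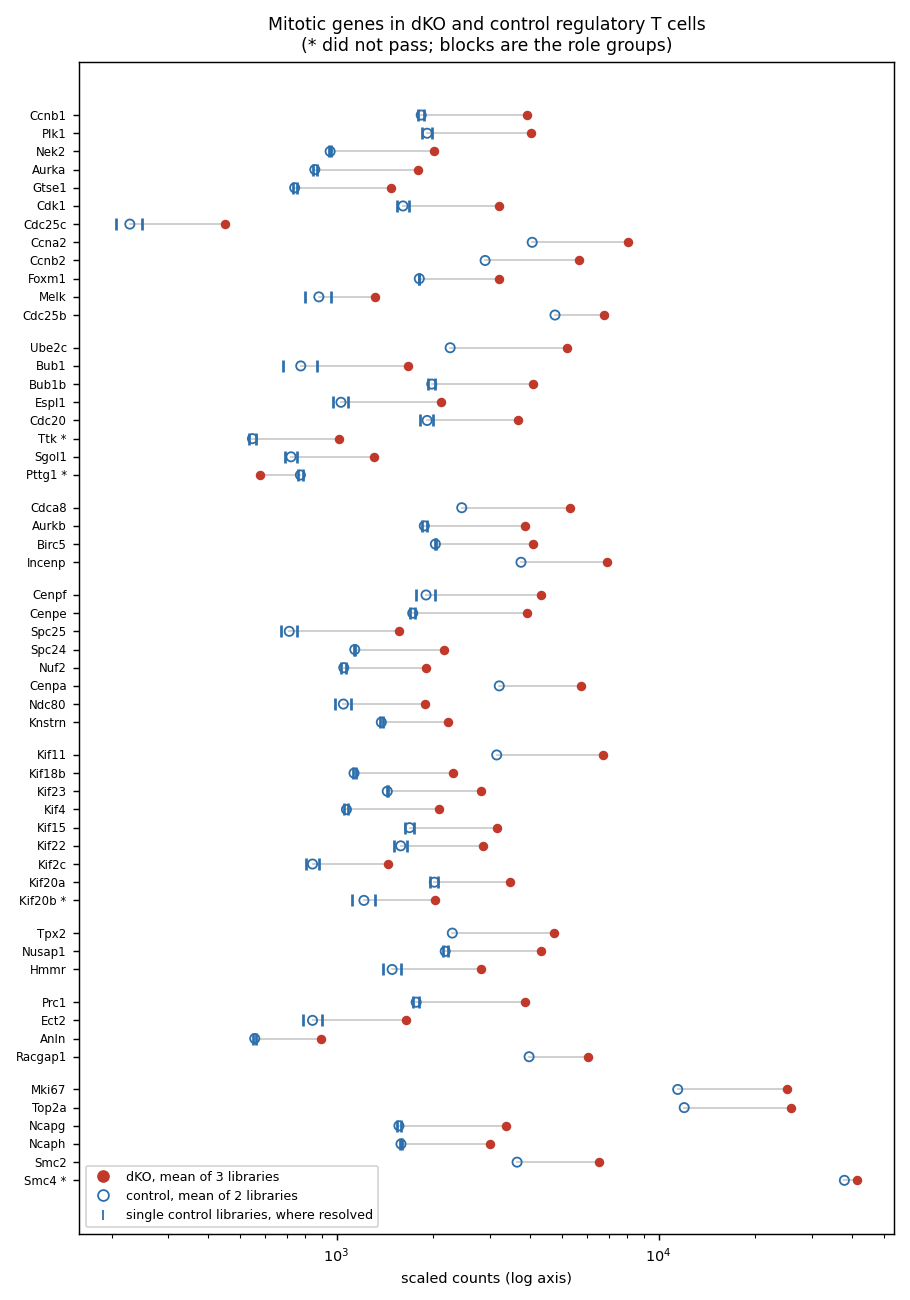
Scaled counts (log axis) of the 54 mitotic genes in blocks by role, with filled circles for the mean of 3 dKO libraries, open circles for the mean of 2 control libraries and ticks for the single control libraries of the 40 genes where they were recovered. The dKO mean lies to the right of control for every gene but Pttg1, and the control ticks, recovered under the 2-fold condition, lie close together.

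The promoters of the genes shared letters that the choice of genes did not use. Many genes of G2 and M phase are known to carry a cell cycle genes homology region (CHR) near the start site, which binds repressor and activator complexes of the MuvB family, together with CCAAT boxes, which bind NF-Y. RefSeq promoter windows of the build GRCm38.p6, from 250 bases before to 50 after an annotated start, were at hand for 45 of the 54 genes and for 27025 genes in all. On either strand, TTTGAA, the CHR letters, stood in the windows of 31 of the 45 mitotic genes (68.9%) and of 20.2% of all genes. CCAAT stood in 33 of the 45 (73.3%) and in 41.1% of all genes, and both together in 26 (57.8%) and in 8.97% of all genes. Within the stretch from 60 bases before to 30 after the start, TTTGAA was found for 26 of the 45 genes (57.8%) and for 5.62% of all genes. A variant, TTTAAA, stood in 10 of the 45 windows (22.2%) and in 14.9% of all. The general E-box CANNTG was in 28 of the 45 windows (62.2%) and in 75% of all, and CAGGTG, one of its forms, in 4 of the 45 (8.89%) and in 22.6% of all. A match of letters is a description and not a binding site, and the annotated start may not be the one used in these cells.

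**Figure D2:**
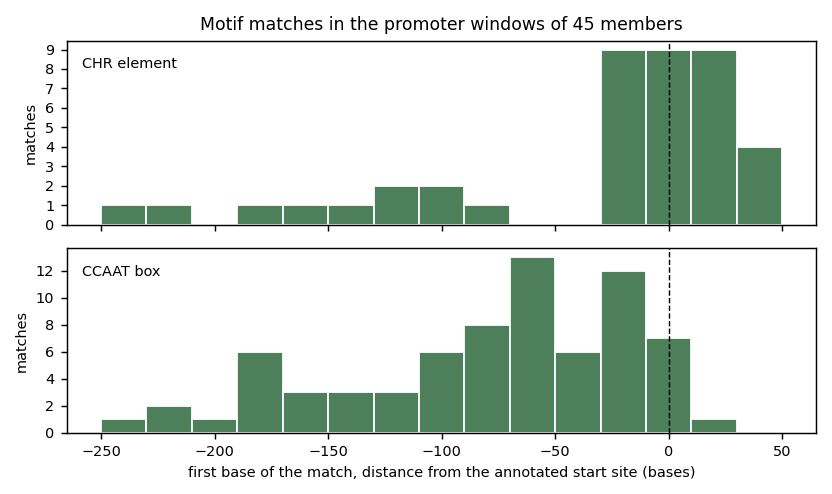
Number of TTTGAA (upper panel) and CCAAT (lower panel) matches on either strand by distance in bases from the annotated start site, in the promoter windows of 45 mitotic genes. TTTGAA matches gather around the start and CCAAT matches mostly before it.

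Stretches of 7 promoters, from 100 bases before to 30 after the RefSeq start, are printed 5′ to 3′ on the gene's strand to show this layout in genes of mitotic entry (Plk1, Ccnb1), anaphase (Cdc20, Ube2c), chromosome structure (Top2a, Mki67) and the spindle (Kif11). In build GRCm38.p6 they are Plk1 at chr7:122159335-122159464 on the plus strand, Ccnb1 at chr13:100786457-100786586 on the minus strand, Cdc20 at chr4:118437314-118437443 on the minus strand, Ube2c at chr2:164769829-164769958 on the plus strand, Top2a at chr11:99024160-99024289 on the minus strand, Kif11 at chr19:37376282-37376411 on the plus strand and Mki67 at chr7:135716350-135716479 on the minus strand. Capitals mark TTTGAA or its reverse complement TTCAAA, the variant TTTAAA, and CCAAT or its reverse complement ATTGG. The start site is the base that follows the first 100.
Plk1: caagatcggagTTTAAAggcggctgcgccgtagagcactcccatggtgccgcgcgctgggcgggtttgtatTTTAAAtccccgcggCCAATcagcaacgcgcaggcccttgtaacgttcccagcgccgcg
Ccnb1: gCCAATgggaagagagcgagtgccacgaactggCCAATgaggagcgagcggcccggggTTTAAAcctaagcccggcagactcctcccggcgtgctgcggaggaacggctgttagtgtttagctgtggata
Cdc20: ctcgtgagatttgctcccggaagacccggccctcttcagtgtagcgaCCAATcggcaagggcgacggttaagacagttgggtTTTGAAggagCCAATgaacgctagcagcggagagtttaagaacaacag
Ube2c: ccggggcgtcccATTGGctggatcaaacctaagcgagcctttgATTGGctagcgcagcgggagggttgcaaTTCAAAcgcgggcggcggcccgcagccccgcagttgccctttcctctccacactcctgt
Top2a: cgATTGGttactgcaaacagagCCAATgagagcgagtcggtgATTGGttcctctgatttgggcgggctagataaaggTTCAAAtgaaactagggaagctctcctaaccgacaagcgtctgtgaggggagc
Kif11: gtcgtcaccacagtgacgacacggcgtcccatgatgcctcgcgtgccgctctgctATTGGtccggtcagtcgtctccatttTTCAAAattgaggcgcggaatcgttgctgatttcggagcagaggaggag
Mki67: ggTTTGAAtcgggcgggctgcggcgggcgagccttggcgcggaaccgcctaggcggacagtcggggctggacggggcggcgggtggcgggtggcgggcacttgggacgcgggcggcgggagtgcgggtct
Cdc20, Ube2c, Top2a and Kif11 carry the CHR letters shortly before the start with CCAAT letters nearby, Plk1 and Ccnb1 carry the TTTAAA variant in a like place, and the CHR letters of Mki67 lie near the far end of the stretch with no CCAAT in it.

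Among the 12 genes of mitotic entry all 12 rose, with a median log2 fold change of 0.99. Plk1, the Polo kinase that drives mitotic entry and spindle assembly, had a mean of 4006 scaled counts in dKO against 1980 and 1841 in the deeper and the other control library. Its log2 fold change was 1.07 with an adjusted p of 2e-12 by the authors' deposited table, the smallest p of the 54 genes. The cyclin B2 gene Ccnb2 averaged 5668 in dKO and 2893 in control in the authors' deposited table (0.97, adjusted p = 1.03e-10). Gtse1, which encodes a microtubule-binding protein of G2 phase, averaged 1480 in dKO against 751 and 731 in the control libraries, a fold of 2 at an adjusted p of 2.77e-08 by the authors' deposited table. The cyclin B1 gene Ccnb1 averaged 3908 in dKO against 1872 and 1792 in the control libraries, and Cdk1, its kinase partner, 3191 in dKO against 1675 and 1541 in the control libraries. For all of these with recovered reads the dKO mean stood above both control libraries. Aurka, the Aurora kinase of the spindle poles, averaged 1788 in dKO against 871 and 842 in the control libraries. Nek2, a kinase that parts the centrosomes, averaged 2008 in dKO against 948 and 961 in the control libraries. The deposited log2 fold changes of these 4 genes were 1.09 for Ccnb1, 0.99 for Cdk1, 1.06 for Aurka and 1.07 for Nek2 in the authors' deposited table.

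The remaining entry genes included the smaller rises. Ccna2, which encodes cyclin A2, averaged 8015 in dKO and 4051 in control in the authors' deposited table (0.98, adjusted p = 5.74e-06). Foxm1, a transcription factor that activates G2 and M phase genes, averaged 3195 in dKO against 1806 and 1808 in the control libraries, with a log2 fold change of 0.82 in the authors' deposited table. Cdc25b and Cdc25c encode phosphatases that act on Cdk1. Cdc25b averaged 6770 in dKO and 4769 in control in the authors' deposited table, a log2 fold change of 0.51 and the smallest among the genes that rose. Cdc25c averaged 451 in dKO against 207 and 249 in the control libraries, with 0.98 in the authors' deposited table. The kinase gene Melk averaged 1313 in dKO against 798 and 963 in the control libraries, with 0.58 in the authors' deposited table (adjusted p = 0.0017).

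Of 8 genes of the spindle checkpoint and anaphase, 6 rose and 2 did not pass, with a median log2 fold change of 0.98. Ube2c, the ubiquitin-conjugating enzyme of the anaphase-promoting complex, had the largest log2 fold change of the 54 genes, 1.20, with means of 5193 in dKO and 2253 in control and an adjusted p of 9.43e-07 by the authors' deposited table. Cdc20, the activator of that complex and the target of the checkpoint, averaged 3655 in dKO against 1822 and 2000 in the control libraries. Its log2 fold change was 0.94 with an adjusted p of 2.17e-05 by the authors' deposited table. The checkpoint kinase gene Bub1b averaged 4060 in dKO against 2021 and 1929 in the control libraries (1.04, adjusted p = 3.49e-05 in the authors' deposited table). Bub1, another checkpoint kinase gene, averaged 1668 in dKO against 867 and 680 in the control libraries, the widest gap between the control libraries of any recovered gene. The dKO mean of Bub1 exceeded the nearer of these by 0.94 on the log2 scale. Espl1 encodes separase, the protease that cuts cohesin, and averaged 2107 in dKO against 976 and 1088 in the control libraries (1.03, adjusted p = 0.0423 in the authors' deposited table). Sgol1, named Sgo1 in the current annotation, encodes shugoshin, which protects centromeric cohesin, and averaged 1305 in dKO against 754 and 690 in the control libraries (0.85, adjusted p = 0.0228 in the authors' deposited table).

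The checkpoint kinase gene Ttk (GRCm38, chr9:83834689-83872390) and the securin gene Pttg1 (chr11:43420250-43426251) did not pass. Ttk averaged 1017 in dKO against 561 and 535 in the control libraries, a log2 change of 0.89 at an adjusted p of 0.0551 by the authors' deposited table. Its size was thus like that of genes that passed. Pttg1, whose product holds separase inactive until anaphase, was the exception in direction, with 579 in dKO against 787 and 757 in the control libraries. The log2 fold change of Pttg1 was -0.42 with an adjusted p of 0.0758 by the authors' deposited table. In the numbered set, separase and its inhibitor securin thus had log2 fold changes of opposite sign, 1.03 and -0.42, of which the first passed. In the unnumbered pair, described below, both were higher in the library labelled dKO.

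All 4 genes of the chromosomal passenger complex, which corrects faulty attachments and later works in cytokinesis, rose, with a median log2 fold change of 1.02. Birc5, which encodes survivin, averaged 4063 in dKO against 2017 and 2038 in the control libraries, and its adjusted p was 4.09e-11 in the authors' deposited table. Cdca8, which encodes borealin, averaged 5297 in dKO and 2448 in control in the authors' deposited table (1.11, adjusted p = 2.37e-08). The Aurora B kinase gene Aurkb averaged 3839 in dKO against 1908 and 1839 in the control libraries (1.04, adjusted p = 1.57e-06 in the authors' deposited table). The scaffold gene Incenp averaged 6924 in dKO and 3739 in control, a log2 fold change of 0.89 in the authors' deposited table. The 4 log2 fold changes spanned 0.89 to 1.11.

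All 8 genes of the centromere and kinetochore rose, with a median log2 fold change of 0.88. Cenpa encodes the histone H3 variant that marks the centromere and averaged 5735 in dKO and 3201 in control (0.84, adjusted p = 4.5e-08 in the authors' deposited table). Knstrn, whose product helps to bind kinetochores to microtubules, averaged 2224 in dKO against 1365 and 1390 in the control libraries (0.69, adjusted p = 3.79e-05 in the authors' deposited table). The Ndc80 complex, the main microtubule-binding unit of the kinetochore, is made of the products of Ndc80, Nuf2, Spc24 and Spc25. Ndc80 averaged 1880 in dKO against 1107 and 992 in the control libraries, and Nuf2 1893 in dKO against 1071 and 1035 in the control libraries. Spc24 averaged 2151 in dKO against 1143 and 1135 in the control libraries, and Spc25 1567 in dKO against 753 and 674 in the control libraries. In the authors' deposited table the log2 fold changes of the 4 subunits were 0.84 for Ndc80, 0.85 for Nuf2, 0.92 for Spc24 and 1.14 for Spc25, and all 4 subunits rose.

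Cenpe and Cenpf had larger changes and larger p-values. Cenpe encodes a kinesin that carries chromosomes to the spindle equator and averaged 3910 in dKO against 1752 and 1696 in the control libraries, a log2 change of 1.18 at an adjusted p of 0.019 by the authors' deposited table. Cenpf, a large coiled-coil protein gene of the outer kinetochore, averaged 4312 in dKO against 2024 and 1768 in the control libraries, a log2 change of 1.19 at an adjusted p of 0.0197 by the authors' deposited table.

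Of 9 kinesin genes, 8 rose and 1 did not pass, with a median log2 fold change of 0.91. Kif18b, whose motor shortens astral microtubules, averaged 2307 in dKO against 1146 and 1121 in the control libraries (1.03, adjusted p = 7.62e-11 in the authors' deposited table). Kif22, a motor that binds chromosome arms, averaged 2859 in dKO against 1660 and 1505 in the control libraries (0.85, adjusted p = 1.69e-07 in the authors' deposited table). Kif20a, a motor of the central spindle, averaged 3467 in dKO against 2071 and 1954 in the control libraries (0.78, adjusted p = 8.87e-07 in the authors' deposited table). For each of these the dKO mean lay above both control libraries. Kif11 encodes the motor that pushes the spindle poles apart, and averaged 6724 in dKO and 3143 in control, with the largest log2 fold change of the kinesins, 1.10, and an adjusted p of 0.0326 by the authors' deposited table. Kif15, a motor that can take over from Kif11, averaged 3157 in dKO against 1630 and 1739 in the control libraries (0.91, adjusted p = 0.0429 in the authors' deposited table). Kif23, the motor of centralspindlin, averaged 2814 in dKO against 1430 and 1444 in the control libraries, with 0.97 in the authors' deposited table. Kif4, a chromosome-bound motor gene on the X chromosome, averaged 2082 in dKO against 1058 and 1088 in the control libraries, with 0.96 in the authors' deposited table. Kif2c, which takes microtubules apart at kinetochores, averaged 1447 in dKO against 882 and 803 in the control libraries, with 0.78 in the authors' deposited table.

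Kif20b (chr19:34922358-34975731), a motor gene needed late in cytokinesis, did not pass. It averaged 2015 in dKO against 1319 and 1113 in the control libraries, a log2 change of 0.73 at an adjusted p of 0.223 by the authors' deposited table. The dKO mean lay above both control libraries, which differed by 0.24 on the log2 scale.

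The 3 genes of spindle assembly rose together, with a median log2 fold change of 0.99. Nusap1, which bundles spindle microtubules near chromosomes, averaged 4311 in dKO against 2215 and 2136 in the control libraries and had an adjusted p of 8.43e-10 by the authors' deposited table. Tpx2, the activator of Aurora A, averaged 4729 in dKO and 2288 in control (1.05, adjusted p = 0.0002 in the authors' deposited table). Hmmr, whose product binds microtubules at the spindle poles, averaged 2808 in dKO against 1584 and 1393 in the control libraries (0.92, adjusted p = 0.0366 in the authors' deposited table).

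The 4 genes of the central spindle and cytokinesis rose, with the lowest median of the role groups, 0.82. Prc1, which crosslinks the microtubules of the central spindle, averaged 3838 in dKO against 1808 and 1727 in the control libraries (1.12, adjusted p = 0.0014 in the authors' deposited table). Ect2, the exchange factor that switches on RhoA at the cleavage site, averaged 1638 in dKO against 900 and 785 in the control libraries, with 0.96 in the authors' deposited table. Anln encodes anillin, a scaffold of the contractile ring, and averaged 895 in dKO against 564 and 551 in the control libraries (0.68, adjusted p = 0.0003 in the authors' deposited table). Racgap1, the partner of Kif23 in centralspindlin, averaged 6053 in dKO and 3962 in control (0.61, adjusted p = 0.0002 in the authors' deposited table). The log2 fold changes of these partners were 0.97 for Kif23 and 0.61 for Racgap1, and the difference between them was not tested.

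Of 6 genes of chromosome structure 5 rose, with a median log2 fold change of 1.01. Ncaph, a condensin I subunit gene, averaged 2989 in dKO against 1595 and 1575 in the control libraries (0.92, adjusted p = 2.02e-06 in the authors' deposited table). Ncapg, another condensin I subunit gene, averaged 3357 in dKO against 1539 and 1585 in the control libraries (1.10, adjusted p = 0.0065 in the authors' deposited table). Smc2, which encodes an ATPase of both condensins, averaged 6527 in dKO and 3636 in control (0.84, adjusted p = 0.0065 in the authors' deposited table). Its partner ATPase gene Smc4 (chr3:69004738-69034623) did not pass, with 41436 in dKO and 37766 in control, a log2 fold change of 0.13, a raw p of 0.391 and an adjusted p of 1 by the authors' deposited table. Smc4 thus had many more scaled counts than its partner Smc2 in both groups, at similar exon lengths of 5032 and 5478 bases. Top2a, the topoisomerase that untangles chromosomes, averaged 25839 in dKO and 12014 in control (1.10, adjusted p = 0.024 in the authors' deposited table). Mki67, whose product coats mitotic chromosomes, averaged 25001 in dKO and 11467 in control, a log2 change of 1.12, at an adjusted p of 0.0495 that was the largest among the genes that rose, by the authors' deposited table.

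The raw p-values of the 54 genes ran from 9.98e-15 for Plk1 to 0.391 for Smc4 in the authors' deposited table, and longer genes tended to have larger ones. Across the 54 genes Spearman's rank correlation between exon length, the summed length of a gene's exons in the GENCODE annotation, and -log10 of the raw p was -0.43, against 0.19 between exon length and the log2 fold change. These are descriptions across genes that share the same libraries. The 27 genes up to the median exon length of 4138 bases had a median log2 change of 0.97 at a median raw p of 3.73e-07. The 27 longer genes had 1.03 and 4.33e-05. Between mean level and -log10 p the same rank correlation was 0.11. The 5 longest were Cenpf, Mki67, Top2a, Prc1 and Cenpe, of 11353, 10075, 9013, 8225 and 7813 bases, and all 5 rose by more than the median of the 54 genes. Raw p-values were 0.001 for Cenpf, 0.0032 for Mki67, 0.0013 for Top2a and 0.001 for Cenpe, but 4.33e-05 for Prc1, in the authors' deposited table. Racgap1, next in length at 7079 bases, had a smaller log2 fold change, 0.61, and a raw p of 4.95e-06. Because the dKO reads per library were not recovered, whether long genes vary more between dKO libraries was not tested. Ranked by the authors' raw p among the genes that rose, 0 of the 54 genes were among the first 50, 1 among the first 100 and 10 among the first 200. In all, 1068 genes rose, and 50 of these were among the 54.

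**Figure D3:**
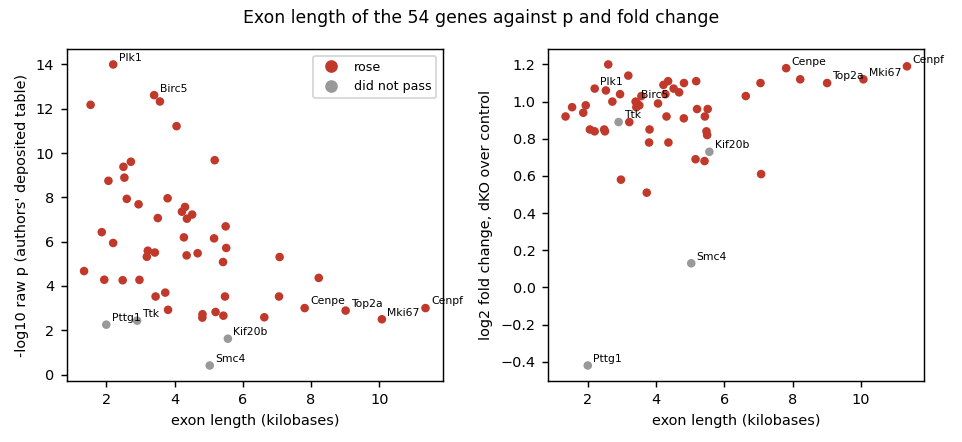
Exon length in kilobases against -log10 of the raw p (left) and against the log2 fold change of dKO over control (right) for the 54 mitotic genes, both from the authors' deposited table, with genes that did not pass in grey. The smallest p-values belong to short genes, while the fold changes of short and long genes cover the same range apart from Pttg1 and Smc4.

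Other genes of cell division were listed by complex or step and not by how they moved, though with earlier results of these data known. Of 128 such genes that the authors' deposited table lists, 58 rose, 0 fell and 70 did not pass. At an unadjusted p under 0.05 by DESeq, 87 were higher and 1 lower, again without a share of all genes to set beside them. The lower one was Ckap4, named after its values were seen, with 27.6 in dKO and 48.6 in control in the authors' deposited table. These levels are far below those of the other related genes. Ckap4 was listed under other cytokinesis and is kept in the counts, but it encodes a membrane protein of the endoplasmic reticulum. The median log2 fold change of the 128 genes was 0.48, against 0.97 for the 54 genes. The spread between complexes was wide. Of 18 other spindle and motor genes 13 rose, with a median of 0.91, among them Spag5, which encodes astrin, with 2303 in dKO and 1217 in control (0.92, adjusted p = 3.4e-08), and Ckap2l with 2126 in dKO and 1132 in control, by the authors' deposited table. Of 12 other cytokinesis genes 7 rose, with a median of 0.82, led by Cdca3, a mitotic entry factor, with 4516 in dKO and 2282 in control (0.98, adjusted p = 7.71e-11 in the authors' deposited table) and Arhgap11a, a RhoA regulator, with 2640 in dKO and 1386 in control.

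Of 18 further outer kinetochore and checkpoint genes 12 rose (median 0.77), among them Mad2l1, the checkpoint protein that binds Cdc20, with 2501 in dKO and 1534 in control (0.71, adjusted p = 1.96e-05), and Spdl1, a dynein adaptor, with 959 in dKO and 529 in control, by the authors' deposited table. In the constitutive centromere network 10 of 16 genes rose (median 0.64), among them Oip5, which helps to load Cenpa, with 454 in dKO and 245 in control (0.89, adjusted p = 2.26e-05) and Cenpp with 525 in dKO and 299 in control, by the authors' deposited table.

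In the anaphase-promoting complex 2 of 15 genes rose, both of them regulators or partners and not subunits: the conjugating enzyme gene Ube2s, with 7563 in dKO and 4591 in control (0.72, adjusted p = 4.43e-06), and the inhibitor gene Fbxo5, with 2764 in dKO and 1688 in control (0.71), in the authors' deposited table. None of the 12 subunit genes passed, and their log2 fold changes ran from -0.16 for Anapc2 to 0.37 for Anapc5. Of 11 cohesin genes 2 rose, Esco2, an acetyltransferase that locks cohesin in S phase, with 1234 in dKO and 616 in control, a fold of 2, and Cdca5, which encodes sororin, with 1646 in dKO and 923 in control (0.83), in the authors' deposited table. The ring genes Smc1a (0.35), Smc3 (0.07) and Rad21 (0.38) did not pass. Of 16 centrosome, centriole and augmin genes 4 rose (median 0.27), among them the augmin gene Haus3 (0.56) and the centriole gene Stil (0.85), by the authors' deposited table. Of 4 further condensin genes 2 rose, Ncapd2 of condensin I with 10330 in dKO and 5959 in control (0.79, adjusted p = 2e-07) and Ncapd3 of condensin II with 3065 in dKO and 2290 in control (0.42, adjusted p = 0.0334), by the authors' deposited table. Of 18 entry and exit regulators 6 rose (median 0.42), among them Ccnf, a cyclin of a ubiquitin ligase, with 2381 in dKO and 1321 in control (0.85, adjusted p = 1.95e-07) and the kinase gene Pbk with 1169 in dKO and 662 in control (0.82), in the authors' deposited table.

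For comparison, 22 of 35 S phase and replication genes rose and 0 fell by the authors' deposited table, with a median log2 fold change of 0.59. At DESeq's unadjusted p under 0.05, for which no share of all genes was computed, 30 were higher and 0 lower. TTTGAA, frequent in the promoters of the 54 genes, stood in 24 of the 45 windows (53.3%) of related genes that rose, in 14 of 60 (23.3%) of those that did not pass, and in 4 of 28 (14.3%) of the S phase genes. In the same order, CCAAT stood in 32 (71.1%), 30 (50%) and 17 (60.7%), so it was frequent outside the 54 genes too. CAGGTG stood in 7 (15.6%), 8 (13.3%) and 3 (10.7%), below its share of all genes in each list.

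**Figure D4:**
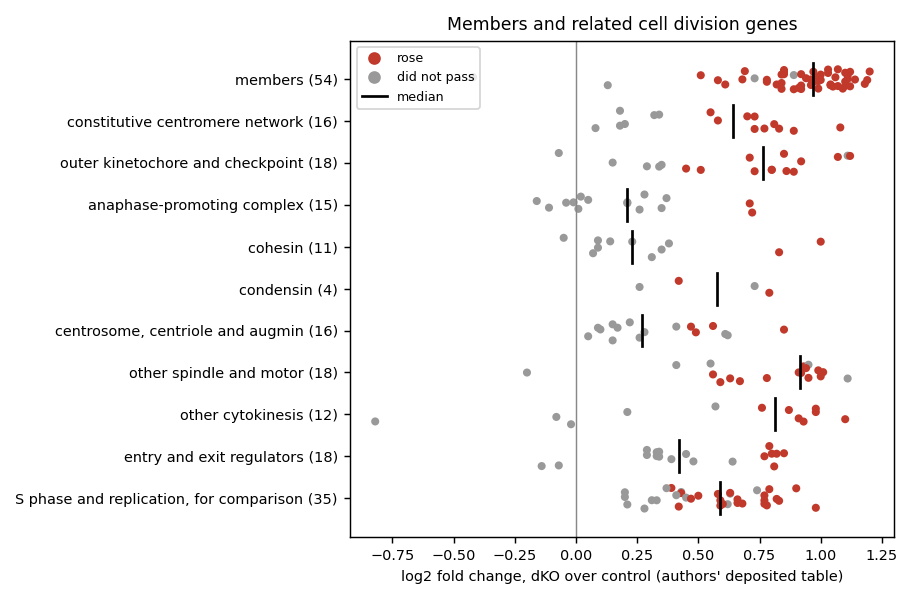
Log2 fold change of dKO over control in the authors' deposited table for the 54 mitotic genes (members), 9 groups of related cell division genes and the S phase list, with the number of genes in brackets, genes that rose in red, genes that did not pass in grey and the median as a bar. The medians run from 0.97 for the 54 genes to 0.21 for the anaphase-promoting complex.

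In the pair of unnumbered libraries, 1 on each side, all 54 genes were higher in the library labelled dKO. The values are FPKM, fragments scaled to transcript length and library depth, which allow levels of different genes to be compared. The 54 genes ranged from 3.45 to 308 FPKM in the library labelled dKO (median 22.3), against 2.59 to 257 FPKM in the library labelled control (median 15.1). Of all 8681 genes with 5 FPKM or more in 1 library, 50.9% were higher in the library labelled dKO. On the log2(FPKM + 1) scale, which understates the change of low genes, the 53 mitotic genes that reach 5 FPKM (all but Anln, at 3.45 FPKM in the library labelled dKO and 2.59 in the one labelled control) had a median difference of 0.63. Of these 53, 29 were 1.5-fold or more higher and 0 reached 2-fold on this scale, against 8.05% of all 8681 genes that were 1.5-fold or more higher. As plain FPKM ratios, without the pseudocount, 3 genes were above 2-fold: Cdc25c at 2.16, Cenpe at 2.06 and Ncapg at 2.03. With 1 library on each side there is no test. The targeted genes of the pair read 9.69 FPKM in the library labelled dKO and 18.6 FPKM in the one labelled control for Id2, and 221 FPKM in the library labelled dKO and 160 FPKM in the one labelled control for Id3.

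By FPKM the most abundant of the 54 genes in the library labelled dKO were Smc4, Ube2c, Cenpa, Birc5 and Top2a. Smc4 had 308 FPKM in the library labelled dKO and 257 FPKM in the one labelled control. Ube2c had 134 FPKM in the library labelled dKO against 79.9 in the one labelled control, and Cenpa had 130 in the library labelled dKO against 75.3 in the one labelled control. Birc5 had 116 FPKM in the library labelled dKO against 61.2 in the one labelled control, and Top2a 95.6 in the library labelled dKO against 58.2 in the one labelled control. The largest differences on the log2(FPKM + 1) scale were 0.95, for Mki67, with 46.2 FPKM in the library labelled dKO and 23.4 in the one labelled control, and for Ncapg, with 19.7 FPKM in the library labelled dKO and 9.73 in the one labelled control. The smallest was 0.21, for Plk1 with 29.4 FPKM in the library labelled dKO and 25.2 FPKM in the one labelled control. Plk1 thus had the smallest p of the 54 genes in the numbered set and the smallest difference in the pair. Pttg1 had 58.6 FPKM in the library labelled dKO and 43.2 FPKM in the one labelled control, a difference of 0.43, opposite in sign to the numbered set. The separase gene Espl1 had 9.9 FPKM in the library labelled dKO and 6.11 FPKM in the one labelled control, a difference of 0.62. Smc4 differed by 0.26 in the pair. The difference in the numbered set exceeded that in the pair for 51 of the 54 genes, and Spearman's rank correlation between the 2 sets of differences was 0.48 across the 54 genes. These values follow the titles of the pair. By its genotype tags the direction turns round, so that all 54 genes would be lower in dKO and the rank correlation would be -0.48, and Id2 and Id3 differ in opposite directions between the libraries. The differences of the pair hold a pseudocount, which shrinks them, and those of the numbered set hold none. The tables were also made with different tools and builds. What part of the gap in size comes from the pseudocount, the tools or the builds was not tested.

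**Figure D5:**
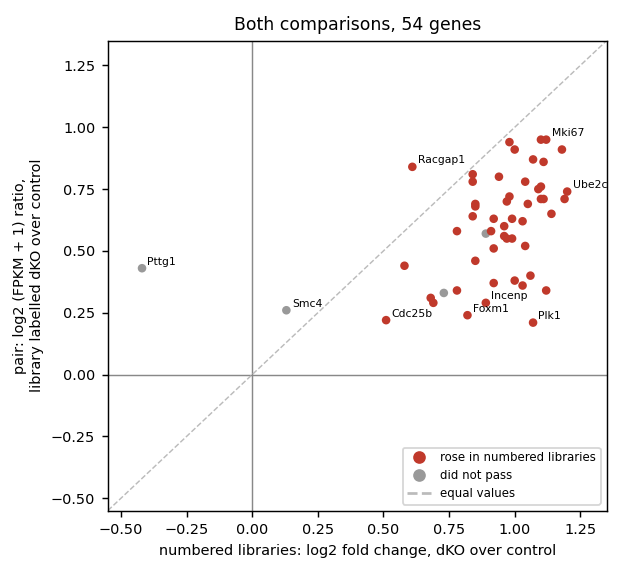
Log2 fold change of dKO over control in the numbered libraries (horizontal axis, authors' deposited table) against the log2(FPKM + 1) difference between the library labelled dKO and the library labelled control in the pair (vertical axis), 1 point per mitotic gene, with a dashed line of equal values. All 54 points lie above 0 on the vertical axis, most lie below the dashed line, and Pttg1 alone lies left of 0.

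Markers of regulatory T cells and of other cell types were read beside these results. In the authors' deposited table the summed scaled counts of regulatory T cell markers were 144239 in dKO and 130262 in control, of which 1 of 6, Ctla4, rose, and Foxp3 itself had 10942 in dKO and 13481 in control. Of the B cell markers 0 rose and 0 fell, with a sum of 1350 in dKO and 1166 in control, and the defining gene Ms4a1 stood at 1.47 in dKO and 1.76 in control. The plasma cell list, which holds Irf4, Xbp1 and Prdm1, genes that activated regulatory T cells also express, summed to 17991 in dKO and 11614 in control, with 1 gene that rose, Prdm1. Igj of the same list had 133 in dKO and 70.3 in control, a log2 change of 0.92 that did not pass. Sdc1 had 28 in dKO and 23.4 in control, and Tnfrsf17 was lower, with 0 in dKO and 1.24 in control. The sums were 301 in dKO and 227 in control for myeloid markers, 714 in dKO and 680 in control for CD8 T, 191 in dKO and 163 in control for NK, and 8.15 in dKO and 11.3 in control for erythroid markers, with 0 genes past the threshold. Dendritic markers summed to 106 in dKO and 166 in control, and 1, Xcr1, fell. Thymocyte markers summed to 1174 in dKO and 1244 in control, and 1, Dntt, rose, with 140 in dKO and 16.4 in control. Most of that sum was Cd1d1, with 1029 in dKO and 1224 in control, so the sum hides the direction of Dntt. Rag1 (2.19 in dKO, 3.32 in control), Rag2 (1.89 in dKO, 0.389 in control) and Ptcra (0.747 in dKO, 0.458 in control) were all low. Stromal and endothelial markers summed to 4536 in dKO and 4793 in control with none past the threshold. Most of that sum was Pecam1, with 4397 in dKO and 4674 in control. Of these markers Tnfrsf17, Hbb-bt and Ccl21a were at 0 in dKO and Clec9a was at 0 in control. The part of these markers in the rise of the mitotic genes was not tested.

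Near-identical copies and overlapping genes touch some of the 54 genes. For Ccnb1, Plk1, Cdc20, Sgol1, Cenpe, Ndc80, Kif11 and Kif22 another annotated gene shares 400 or more bases at 90% identity or more, so that reads may have been split between them. Adding the copies left their log2 fold changes within 0.02 of the gene's own. The largest copy was that of Ndc80, with 394 in dKO and 212 in control in the authors' deposited table. Another gene in the table overlaps 22 of the 54 genes, and the labels do not say if reads were assigned by strand, so reads of overlapping genes may be mixed.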

How the data were processed

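RNA of sorted regulatory T cells was reverse transcribed from hexamer and oligo-dT primers and sequenced with dUTP strand marking, per the labels' protocols. For the numbered set the deposited signal columns hold scaled counts, averaged per group; the authors' tools were RSEM and DESeq, without versions, on mm10 (GRCm38), per the submitters' processing notes. The file headers call these columns raw counts, but the values are fractional. The deposited log2 values, raw p-values and adjusted p-values were used as the authors gave them; the deposited signed fold score was not used. For the pair the deposited FPKM values come from TopHat 1.4.0 and Cuffdiff, its version given as 0.0.6, on mm9, per the submitters' processing notes. The p-values and q-values that the authors' Cuffdiff table gives for 1 library against 1 were not used.

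An adjusted p under 0.05 by the authors' DESeq test over all genes was the threshold for risen or fallen. The 54 genes and all lists were chosen with earlier results of these data known. Every gene of the list is reported; related genes are named by the smallest adjusted p, 2 per group. Control means under 300 were explained by whole reads of 2 libraries for 100% of 4216 distinct values (tolerance 5.5e-05). The scaled counts summed to 39948550 in dKO and 38950892 in control; dKO size factors were 0.929, 0.910 and 0.860. In the pair, 27200 of 27901 entries (97.5%) matched a gene, FPKM was summed per gene, and a pseudocount of 1 was used. Copies were found with BLAST+ 2.17.0 in GENCODE M21. Python 3.11.15, pandas 2.3.3 and scipy 1.17.1 were used. The related gene Cenpu was not matched in the numbered set and is not analysed there. Alternatives were other thresholds, filters, scalings and pseudocounts. Some cell type marker results are not reported here.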

Additional observations from a re-analysis of the deposited data

How the results depend on the processing

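Of 33 alternatives, 24 left a count within 1.5 times of its reported value or a median within the spread between the control libraries (0.07), and 1 turned a direction: with the pair grouped by its genotype tags, chosen after seeing the data, the median of the mitotic genes was -0.63, with 0 mitotic genes and 2 related genes 1.5-fold or more higher in dKO. The number of mitotic genes that rose was 40 at an adjusted p under 0.01, 51 at an adjusted p under 0.1 and 51 when low genes (mean under 10) were left out of the adjustment. With genes that overlap no other gene, 30 of the 32 mitotic genes left rose; fewer genes enter by construction. The median log2 fold change was 0.93 with means scaled to the same total, and leaving out either control library gave 0.96 in each case over the 40 recovered genes. In the pair, a pseudocount of 5 FPKM left 18 mitotic genes and 12 related genes at 1.5-fold or more, against 29 and 35 with a pseudocount of 1, and lowered the median of the mitotic genes to 0.49; a larger pseudocount shrinks ratios by construction. At a fold of 2 the pair had 0 mitotic genes and 2 related genes. No paired analysis was possible because the table holds group means, and the reads of the dKO libraries could not be recovered. For the same reason the planned edgeR and DESeq2 fits and the fits without each replicate were not run. The group means hide the spread between dKO libraries, and the pair has no replicate.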
